A study of Homo sapiens with 4 samples.

Results

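The library of cells labelled HepG2 and treated with an siRNA against ING5 was compared with that of cells labelled alike and treated with a control siRNA. All genes with a mean scaled count of at least 20 in the pair were followed, which were 11634 of the 16856 genes listed for both libraries. Counts were brought to a common library size before the mean was taken, and 4 rows belonging to 2 identifiers that stood more than once were left out. HepG2 is a human line from a liver tumour, and most hepatocyte secreted markers were at or near 0 here, as given below. The series held 4 bulk RNA-seq libraries, 1 per group: cells given an empty vector, a FLAG-JFK plasmid, a control siRNA or an ING5 siRNA. Every label names HepG2 and liver. The labels give no time after treatment, no dose and no siRNA sequence. The siRNA libraries held 9196979 (control) and 9030075 (ING5 siRNA) counts over the 16856 genes. Each group is a single library, so no difference could be checked against replicates and no p-value is given. Each log2 fold is the scaled count in ING5 siRNA over that in control siRNA with 0.5 added to both. Its 95% interval was computed exactly (Clopper-Pearson) from the 2 counts and covers counting error only, not variation between libraries. It treats reads as independent, and since reads are not independent molecules it can be too narrow even for that. In bulk RNA, fewer cells of a kind and less RNA per cell cannot be told apart.

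ING5 is a member of the inhibitor of growth family, small nuclear proteins whose PHD finger binds histone H3 methylated at lysine 4. It serves as a subunit of acetyltransferase complexes built on KAT6A (MOZ), KAT6B (MORF) and KAT7 (HBO1), which acetylate the tails of histones H3 and H4 at active genes. A pair of inducible programmes recur in the results. In the NF-kB pathway, inhibitors such as NFKBIA hold the factor in the cytoplasm until kinases mark them for breakdown. The freed factor then binds kappaB elements and drives cytokine, adhesion and survival genes. In the interferon pathway, sensors of foreign RNA and interferon receptors lead to STAT and IRF factors that bind interferon-stimulated response elements (ISRE) and drive antiviral effectors.

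The promoters of 6 genes from these programmes are shown because their transcripts stood far apart between the libraries or, in IFI6, did not go with its neighbours. They are RefSeq sequences of build GRCh38.p14, from 250 bases before to 50 bases after each gene's start, written 5′ to 3′ on the gene's strand, and they were not measured in these libraries. Capitals mark matches on either strand to a kappaB-like motif, GGNNNTTCC, in CXCL8, IL6 and ICAM1, and to an ISRE-like motif, GAAANNGAA, in IFIT1, ISG15 and IFI6.
CXCL8 (chr4:73740319-73740618, plus strand): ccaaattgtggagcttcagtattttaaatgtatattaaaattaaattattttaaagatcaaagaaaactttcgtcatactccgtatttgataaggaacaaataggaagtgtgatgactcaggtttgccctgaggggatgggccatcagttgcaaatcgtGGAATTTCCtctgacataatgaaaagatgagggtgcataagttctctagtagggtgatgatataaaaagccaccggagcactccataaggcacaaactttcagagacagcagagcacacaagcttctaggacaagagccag
IL6 (chr7:22726950-22727249, plus strand): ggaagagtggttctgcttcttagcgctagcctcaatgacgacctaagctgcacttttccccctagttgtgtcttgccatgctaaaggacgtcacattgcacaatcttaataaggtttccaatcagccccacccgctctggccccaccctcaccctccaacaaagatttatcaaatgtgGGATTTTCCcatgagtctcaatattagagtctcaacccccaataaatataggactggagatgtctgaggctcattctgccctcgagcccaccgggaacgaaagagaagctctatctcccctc
ICAM1 (chr19:10270870-10271169, plus strand): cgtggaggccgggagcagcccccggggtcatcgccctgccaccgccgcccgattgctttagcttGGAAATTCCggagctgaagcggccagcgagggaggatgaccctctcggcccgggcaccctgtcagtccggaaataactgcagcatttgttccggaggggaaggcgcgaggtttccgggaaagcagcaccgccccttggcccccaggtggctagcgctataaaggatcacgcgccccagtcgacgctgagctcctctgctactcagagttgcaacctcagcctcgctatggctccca
IFIT1 (chr10:89392373-89392672, plus strand): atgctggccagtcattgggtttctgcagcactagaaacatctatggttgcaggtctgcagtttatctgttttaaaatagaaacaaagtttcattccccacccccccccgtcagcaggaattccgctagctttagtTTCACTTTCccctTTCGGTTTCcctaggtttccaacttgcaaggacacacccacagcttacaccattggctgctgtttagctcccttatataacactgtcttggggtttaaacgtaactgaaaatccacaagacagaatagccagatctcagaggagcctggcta
ISG15 (chr1:1013247-1013546, plus strand): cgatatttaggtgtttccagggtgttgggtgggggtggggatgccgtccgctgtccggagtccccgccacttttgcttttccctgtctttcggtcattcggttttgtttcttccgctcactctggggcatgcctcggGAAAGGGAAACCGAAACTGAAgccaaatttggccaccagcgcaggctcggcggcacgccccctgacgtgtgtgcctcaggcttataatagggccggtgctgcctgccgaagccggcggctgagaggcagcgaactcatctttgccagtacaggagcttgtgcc
IFI6 (chr1:27672143-27672442, minus strand): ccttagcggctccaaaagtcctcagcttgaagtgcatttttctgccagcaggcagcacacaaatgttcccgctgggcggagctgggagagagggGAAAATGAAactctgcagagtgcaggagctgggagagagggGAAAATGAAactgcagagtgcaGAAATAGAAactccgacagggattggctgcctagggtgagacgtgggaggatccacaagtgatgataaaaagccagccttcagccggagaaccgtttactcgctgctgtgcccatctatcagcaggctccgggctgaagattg
Counted from the gene's start, the match begins at position −91 in CXCL8, −72 in IL6 and −186 in ICAM1. IFIT1 holds 2 ISRE-like matches, while ISG15 and IFI6 hold 3 each. A match is a description of letters and not of binding.

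Most genes stood close together in the pair. The median log2 fold over all 11634 genes was −0.01, with 5654 genes above 0 and 5980 below, and 91.6% were less than 1.5-fold apart. At least 2-fold higher in ING5 siRNA were 89 genes, or 0.765% of those measured, and at least 2-fold lower were 81 genes, or 0.696%. At 1.5-fold, the threshold used below for members of gene lists, 466 genes (4.01%) were higher and 512 (4.4%) lower. The 2-fold higher genes were mostly weakly expressed: their median mean scaled count was 41.1, against 80.8 for the 2-fold lower genes and 320 for all measured genes. Among the 2909 genes with the lowest counts 71 were 2-fold higher and 47 lower, and among the 2909 with the highest counts 4 were higher and 13 lower. The filter on the mean lets a gene pass through 1 library alone: 32 of the 89 had fewer than 20 counts in control siRNA and 21 of the 81 had fewer than 20 in ING5 siRNA. An interval lying wholly past 1.5-fold was met by 44 of the 89 and 48 of the 81.

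**Figure D1:**
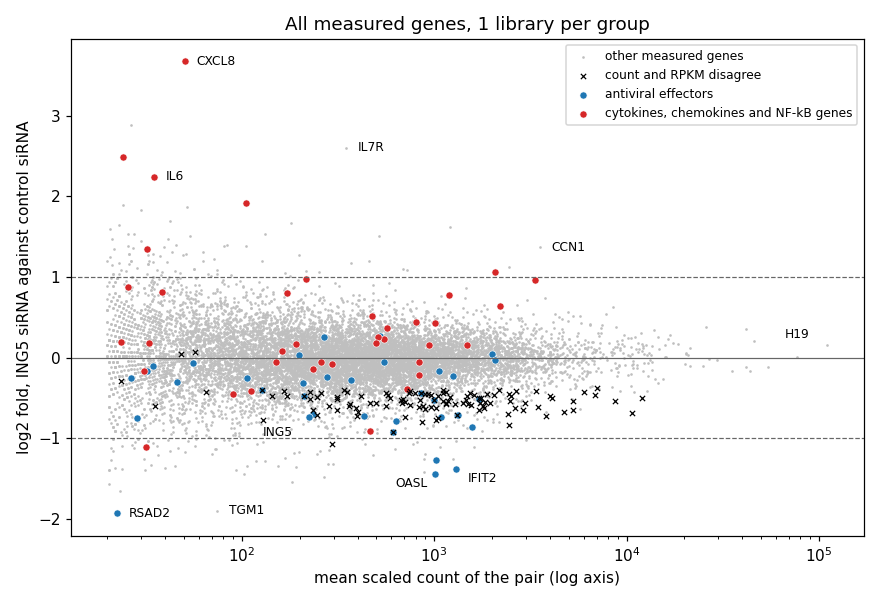
Log2 fold of ING5 siRNA against control siRNA (y axis) for the 11634 measured genes, by mean scaled count of the pair (x axis, log scale), with 1 library per group; dashed lines mark 2-fold. Cytokine, chemokine and NF-kB genes (red) reach 3.67 at CXCL8, and antiviral effectors (blue) reach −1.93 at RSAD2. CXCL8 and RSAD2 each passed the filter only through the library where they are high, so they had to differ. Genes whose count and RPKM disagree (crosses) lie almost all in a band below 0.

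The targeted gene checks the label. ING5 (Entrez Gene 84289) had 144 counts in control siRNA and 81 in ING5 siRNA (log2 fold −0.81, interval −1.23 to −0.41). On a CPM scale (counts scaled by library total and TMM factor) shared by all 4 libraries, ING5 stood at 23.8 in vector, 19.4 in the library labelled JFK, 16.6 in control siRNA and 9.45 in ING5 siRNA. The vector and siRNA tables were made separately, so levels set across them carry that difference. Among the paralogs, ING1, a subunit of SIN3 deacetylase complexes, lay farthest above 0, with 792 and 1087 counts (0.47). ING3, of the NuA4/TIP60 acetyltransferase complex, had 180 and 127 (log2 fold −0.49, interval −0.83 to −0.15), and ING2 and ING4 lay at 0.00 and −0.05.

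Of the 12 subunits of MOZ, MORF and HBO1 complexes 2 were 1.5-fold lower, ING5 itself and JADE2, a scaffold of HBO1 complexes (691 and 412 counts, log2 fold −0.73, interval −0.91 to −0.55). Together 10 of the 12 lay below 0, and the median was −0.17. Of all measured genes 51.4% lay below 0 and 4.4% were 1.5-fold lower. ING5, the siRNA's own target, is counted among both the 2 and the 10 and says nothing about the other subunits. The catalytic subunits had values of −0.30 for KAT7 (interval −0.46 to −0.14), −0.27 for KAT6A (−0.45 to −0.10) and −0.18 for KAT6B (−0.39 to 0.02). The remaining subunits ran from −0.21 at BRPF3 to 0.16 at BRPF1. No member of the 18 NuA4/TIP60 subunits or of the 24 SIN3 and NuRD subunits was 1.5-fold apart, and both medians lay at 0.00 or −0.01.

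Antiviral effectors of the interferon response were lower in ING5 siRNA, in part of the list. Of 36 measured members 14 were 1.5-fold lower and 0 higher, against 4.4% and 4.01% of all genes, and the median was −0.41. However, 1 of the 14, RSAD2 (−1.93), had fewer than 20 counts in ING5 siRNA. It passed the filter only through control siRNA, where it is high. Among the 35 members with at least 20 counts in both libraries 13 were lower and 0 higher, with a median of −0.39. Count and RPKM disagree in ING5 siRNA for 6 of the 36, DTX3L, OAS3, PARP14, PLSCR1, EIF2AK2 and USP18. Without these 6, 12 of 30 were 1.5-fold lower and the median was −0.28. A further 5 listed genes had rows but stayed under the count minimum.

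The IFIT genes, whose proteins bind viral RNA, differed within their family. IFIT1 had 2037 counts in control siRNA and 1113 in ING5 siRNA (log2 fold −0.86, interval −0.96 to −0.75). IFIT5 had 406 and 333 (log2 fold −0.27, interval −0.48 to −0.06). The intervals of these 2 genes do not overlap, and IFIT2 (−1.38) and IFIT3 (−1.26) lay below both.

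Oligoadenylate synthetases, which activate RNase L on double-stranded RNA, also spread. OAS1 had 803 and 460 counts (−0.79, interval −0.96 to −0.62), and OASL, a member without synthetase activity, 1491 and 543 (−1.44). OAS2 had 116 and 96 (−0.26, −0.66 to 0.15), an interval that spans 0. OAS3 lay at −0.71 by its listed count. The ubiquitin-like modifier ISG15 had 540 and 323 counts (log2 fold −0.72, interval −0.93 to −0.52), and its ligase HERC5 1362 and 810 (−0.73). HERC6, a relative of HERC5, lay at −0.73, the translation inhibitor SAMD9 at −0.71 and its neighbour SAMD9L at −0.32.

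Membrane-restricting effectors stood apart from these. IFITM3, which blocks virus entry, had 2102 and 2047 counts (log2 fold −0.02, interval −0.11 to 0.07), and BST2, which tethers budding virus, 1971 and 2016 (log2 fold 0.05, interval −0.04 to 0.14). IFITM1 lay at 0.27 and IFITM2 at −0.22, and as these 3 genes are much alike their separate counts are uncertain. IFI6, whose promoter also holds ISRE-like matches, had 245 and 289 counts (log2 fold 0.25, interval 0.00 to 0.51). The ISRE-like motif was in 24 of the 30 antiviral promoters found, in 8.64% of the promoters of all measured genes, in 14 of 63 promoters of 2-fold higher genes and in 7 of 54 of 2-fold lower genes.

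Of 9 RNA sensors and adaptors 2 were 1.5-fold lower, against 4.4% of all genes. IFIH1 (MDA5) had 340 and 194 counts (−0.79, interval −1.06 to −0.53) and RIGI (RIG-I) 557 and 342 (−0.69, −0.89 to −0.49). The DNA-sensing adaptor STING1 lay at −0.56, and the shared adaptor MAVS at −0.16. No member of the 19 IRF, STAT and interferon receptor genes was 1.5-fold apart, and their median was 0.11. STAT2 had 301 and 278 counts (−0.10) and its partner IRF9 149 and 169 (0.20). Of 20 MHC class I and peptide loading genes 16 lay above 0, against 48.6% of all genes. Of the 20, 0 were 1.5-fold apart, and the median was 0.15. HLA-B had 2660 and 3389 counts (0.37), the trimming peptidase ERAP1 lay at 0.52, and NLRC5, the class I transactivator, at 0.40. HLA genes share long stretches of sequence, so their separate counts are uncertain. The ISRE-like motif was in 11 of the 16 promoters found for this list.

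**Figure D2:**
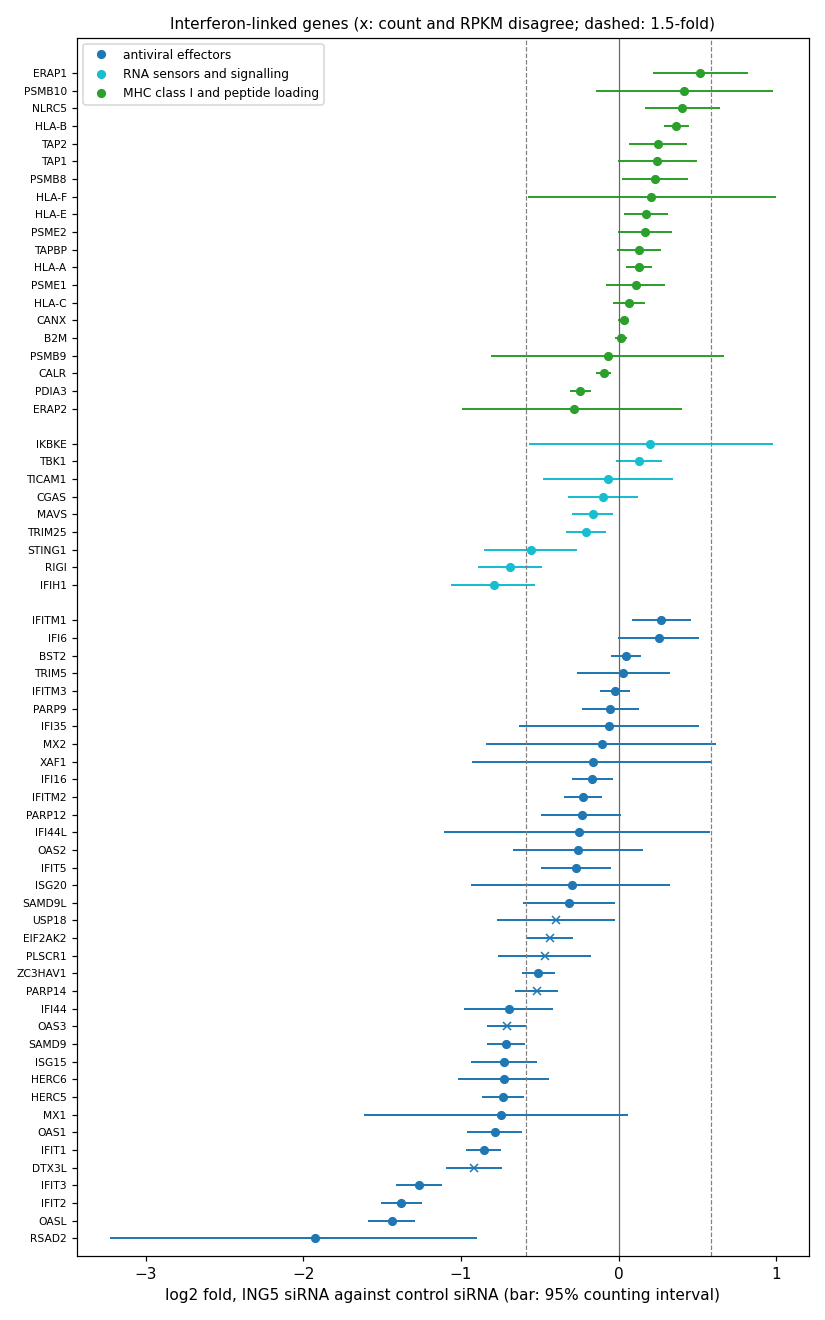
Log2 fold of ING5 siRNA against control siRNA (x axis) with 95% counting intervals (bars) for antiviral effectors, RNA sensors and MHC class I genes (rows), from 1 library per group. OASL, IFIT2 and IFIT3 lie past −1 while IFITM3, BST2 and most MHC class I genes lie near or above 0; crosses mark 6 antiviral genes whose count and RPKM disagree.

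The levels behind these folds differed widely between the pairs. On the shared CPM scale ISG15 stood at 1453 in vector, 1593 in the JFK-labelled library, 62.1 in control siRNA and 37.7 in ING5 siRNA. For IFI6 the values were 1885, 1895, 28.2 and 33.7, and for OASL 856, 799.8, 171 and 63.4. In each of these 3 genes the siRNA libraries were both below the vector pair.

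Several inflammatory cytokine and chemokine transcripts stood at few reads in control siRNA and more in ING5 siRNA. Of 12 measured members 7 were 1.5-fold higher and 1 lower, against 4.01% and 4.4% of all genes, with a median of 0.84. However, 5 of these 7, CXCL8, IL1A, IL6, TNFSF15 and CXCL2, had fewer than 20 counts in control siRNA and passed the filter only through ING5 siRNA, where they are high, so they had to differ. Among the 7 members with at least 20 counts in both libraries 2 were higher, IL32 and LIF, 1 was lower, CCL2, and the median was 0.16. The list's count and median are therefore a description and no support for a shift of the list. CXCL8, the neutrophil chemokine interleukin-8, had 7 counts in control siRNA and 94 in ING5 siRNA. On the shared CPM scale it stood at 1.44 in vector, 1.87 in the library labelled JFK, 0.805 in control siRNA and 10.97 in ING5 siRNA. It was thus highest in ING5 siRNA of the 4 libraries. IL6, a fever and acute-phase cytokine, was not: it stood at 14.4 CPM in vector, with 23.2 in the library labelled JFK, against 1.38 in control siRNA and 6.77 in ING5 siRNA.

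The alarmin IL1A had 7 and 41 counts (log2 fold 2.48, interval 1.40 to 3.97), TNFSF15 18 and 46 (log2 fold 1.35, interval 0.56 to 2.24) and LIF, an IL-6 family cytokine, 126 and 218 (log2 fold 0.80, interval 0.48 to 1.14). CXCL2 had 18 and 33, with an interval of 0.02 to 1.81. In contrast, the T cell chemokine CCL5, the most abundant listed chemokine with 822 and 621 counts, lay at −0.39 (−0.54 to −0.24), and the monocyte chemokine CCL2 at −1.10. IL18 had 1401 and 1547 counts (0.16).

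In the NF-kB pathway, 6 of 26 genes were 1.5-fold higher and 1 was lower, against 4.01% and 4.4% of all genes. The median was 0.19. The differing subunits were those of the non-canonical arm: NFKB2 (p100) had 888 and 1502 counts (log2 fold 0.77, interval 0.65 to 0.90) and RELB 28 and 49 (log2 fold 0.81, interval 0.12 to 1.55). RELA lay at 0.18, NFKB1 at −0.07 and REL at −0.45. Of the inhibitors, NFKBIA lay at 0.16, NFKBIB at −0.41 and the ubiquitin-editing enzyme gene TNFAIP3 (A20) at 0.52.

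Survival and adhesion genes of this list differed among themselves. BIRC3, an inhibitor of apoptosis, had 2272 and 4394 counts (log2 fold 0.97, interval 0.89 to 1.04), while its relative BIRC2 had 903 and 772 (log2 fold −0.21, interval −0.35 to −0.07). ICAM1, a leukocyte adhesion molecule, had 147 and 286 (log2 fold 0.97, interval 0.68 to 1.27), and the mitochondrial superoxide dismutase SOD2 1720 and 2658 (0.64). The lowest was CD83, a surface immunoglobulin-family protein, with 609 and 321 counts (log2 fold −0.91, interval −1.11 to −0.71). The kappaB-like motif was in 17 of 22 promoters found for this list and in 29.3% of those of all measured genes. It was in 17 of 63 promoters of 2-fold higher genes and 15 of 54 of 2-fold lower genes, shares of 27.0% and 27.8%.

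Among 21 cytokine receptors 3 were 1.5-fold higher and 0 lower, against 4.01% and 4.4% of all genes, with a median of 0.08. IL7R, the interleukin-7 receptor, was the receptor gene farthest apart, at 11.4 CPM in control siRNA and 69.8 in ING5 siRNA. The vector library, at 122, and the library labelled JFK, at 147, stood above both siRNA libraries. TNFRSF21, a death-domain receptor, had 140 and 291 counts (log2 fold 1.07, interval 0.78 to 1.37) and IL1RAP, the accessory chain of the interleukin-1 receptor, 596 and 898 (0.61). IL1R1, the ligand-binding chain of that receptor, had 212 and 153 (log2 fold −0.45, interval −0.76 to −0.15), and IL20RB lay at −0.50.

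Genes that feed or damp the EGF receptor and ERK pathway were higher in part. Of 22 measured, 8 were 1.5-fold higher and 0 lower, against 4.01% and 4.4% of all genes. Of the 22, 18 lay above 0, against 48.6% of all genes, and the median was 0.20. Among the ligands, EREG (epiregulin) had 1042 and 1871 counts (log2 fold 0.86, interval 0.75 to 0.97) and HBEGF 43 and 66 (log2 fold 0.63, interval 0.06 to 1.22). TGFA had 0.22 and AREG 0.02, both with intervals that span 0. The receptor gene EGFR had 3549 and 2835 counts (log2 fold −0.31, interval −0.38 to −0.24).

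The feedback genes of the pathway include phosphatases that switch off ERK. DUSP6 had 60 and 110 counts (log2 fold 0.88, interval 0.42 to 1.37) and DUSP5 168 and 289 (log2 fold 0.80, interval 0.52 to 1.08), while DUSP4 lay at −0.14 and DUSP1 at −0.12. PHLDA1 had 163 and 338 (log2 fold 1.07, interval 0.79 to 1.35), the EGFR inhibitor ERRFI1 156 and 236 (0.61), and the ETS factors ETV4 and ETV5 lay at 0.71 and 0.34. The Sprouty genes SPRY1, SPRY2 and SPRY4 had values of 0.16, 0.07 and 0.29, each with an interval that spans 0.

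Of 20 AP-1 and immediate early factors 3 were 1.5-fold higher and 2 lower, against 4.01% and 4.4% of all genes. The median was −0.08. JUN had 197 and 329 counts (log2 fold 0.75, interval 0.50 to 1.02) and MAFK 305 and 495 (log2 fold 0.71, interval 0.51 to 0.93). FOS lay at −0.15 and EGR1 at −0.10, and the orphan nuclear receptor gene NR4A2 had 236 and 126 (log2 fold −0.89, interval −1.21 to −0.57). The third higher factor, FOSB, had 15 and 25 counts and an interval of −0.23 to 1.78. It passed the filter only through ING5 siRNA, where it is high. Among the 19 factors with at least 20 counts in both libraries 2 were higher and 2 lower. The AP-1 motif TGANTCA was in 12 of 63 promoters of 2-fold higher genes, 5 of 54 of 2-fold lower genes and 6.67% of all.

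Targets of YAP and TGF-beta that act in the matrix were 1.5-fold higher in 7 of 20 cases and lower in 1. The shares over all genes were 4.01% and 4.4%, and the list's median was 0.18. F3, tissue factor, which starts coagulation, had 1549 and 3348 counts (log2 fold 1.13, interval 1.04 to 1.22) and TGFBI 598 and 892 (0.59). CCN2, often read together with CCN1 (1.37) as a YAP target, had 34 and 38 counts (log2 fold 0.17, interval −0.53 to 0.89). YAP1 itself had 13018 and 11474 (−0.17).

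**Figure D3:**
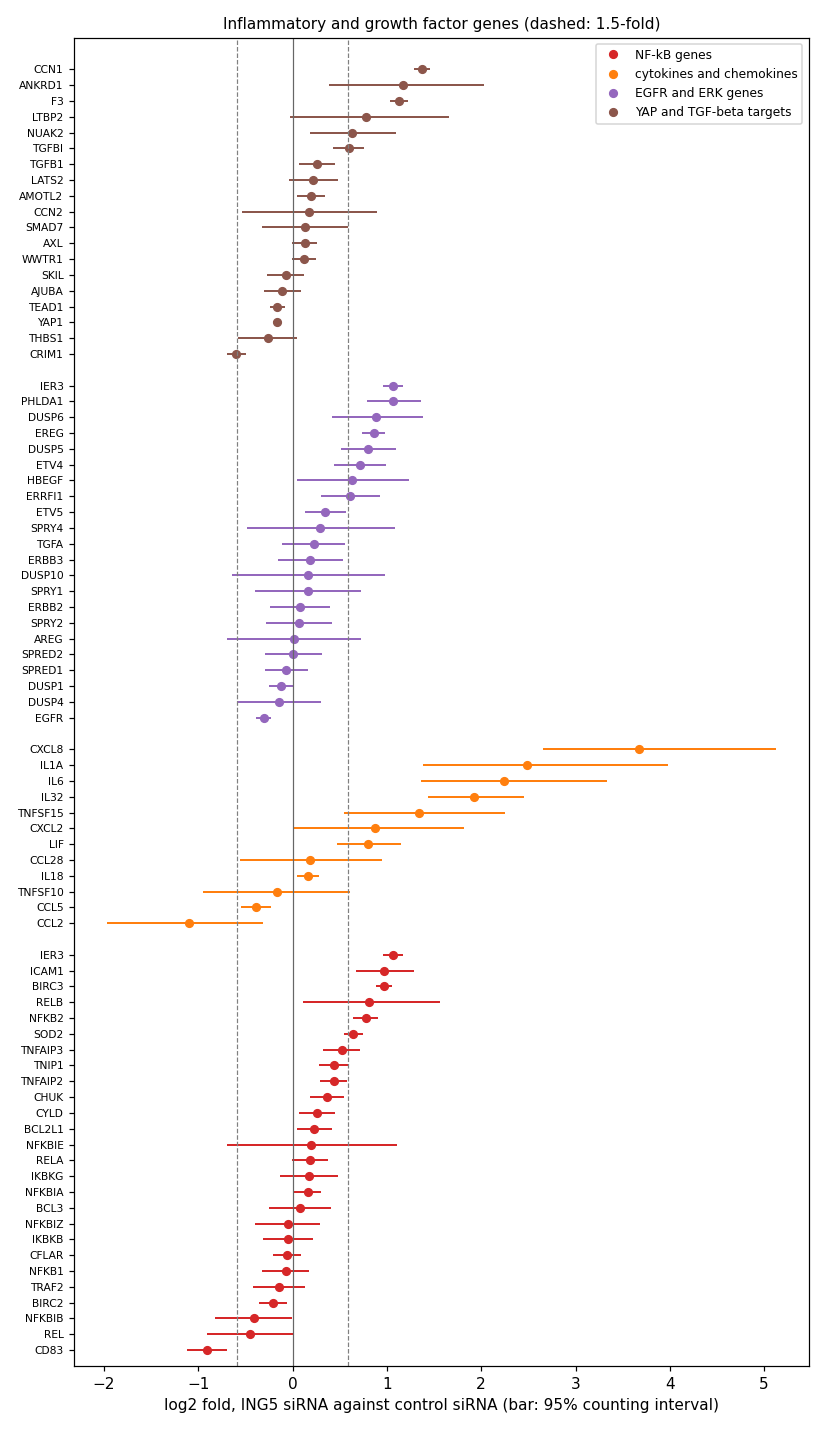
Log2 fold of ING5 siRNA against control siRNA (x axis) with 95% counting intervals (bars) for NF-kB, cytokine, EGFR and ERK, and YAP and TGF-beta genes (rows), from 1 library per group. CXCL8, at 3.67, has the widest distance from 0 and few reads, while IER3, BIRC3 and CCN1 have narrow intervals past 1.5-fold.

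Among collagens, laminins and integrins 4 of 28 were 1.5-fold higher and 1 lower, against 4.01% and 4.4% of all genes. COL5A2, a fibrillar collagen chain, had 440 and 933 counts (log2 fold 1.10, interval 0.94 to 1.27), and the fibronectin receptor chain ITGA5 2113 and 3297 (0.66). Of 14 mesenchymal transition genes 2 were 1.5-fold higher and 2 lower: TWIST1 lay at 0.76 and TWIST2 at −0.69, and FAP at 1.87 and SNAI2 at −0.93. Epithelial junction genes had 18 of 23 members below 0, against 51.4% of all genes. In this list 2 were 1.5-fold higher, EPCAM and MARVELD2, with 27 and 41 counts for the latter.

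Cell cycle genes lay close together in the pair. Of all measured genes 4.01% were 1.5-fold higher, 4.4% were 1.5-fold lower and 51.4% lay below 0. The counts for replication genes and p53 targets are near the 1.5-fold shares. None of 32 G2/M genes was 1.5-fold apart, though 29 lay below 0 (median −0.16), among them ECT2, MAD2L1 and TOP2A, whose count and RPKM disagree. Of 42 replication genes 2 were 1.5-fold lower, POLE3 (−1.20) and CCNE2, cyclin E2, with 290 and 186 counts (log2 fold −0.62, interval −0.90 to −0.35), while CCNE1, cyclin E1, had 222 and 285 (log2 fold 0.38, interval 0.12 to 0.64). Of 30 p53 targets 2 were 1.5-fold higher, among them GADD45A (0.78), and 1 was lower, the p53 ligase gene MDM2, with 1274 and 838 counts (log2 fold −0.59, interval −0.72 to −0.46). Of 29 apoptosis regulators 1 was 1.5-fold higher, BIRC3 (0.97), and 3 were lower. The initiator caspase gene CASP9 had 355 and 158 counts (log2 fold −1.15, interval −1.43 to −0.88). BAD, a BCL2 antagonist, had 78 and 38 (log2 fold −1.01, interval −1.62 to −0.44), and BIK had 29 and 17. BIK passed the filter only through control siRNA, where it is high. Among the 28 regulators with at least 20 counts in both libraries 2 were lower and 1 higher.

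In housekeeping complexes few subunits were 1.5-fold apart, beside 4.4% lower and 4.01% higher over all genes. The counts for complex I, the proteasome and the mitochondrial ribosome are not above these shares. None of 78 cytosolic ribosomal protein genes was 1.5-fold apart (median 0.02), nor any of 38 genes of respiratory complexes II to V (0.01). Of 37 complex I genes 1 was lower, NDUFAB1 (log2 fold −1.48, interval −1.77 to −1.20). Of 37 proteasome genes 1 was lower, PSMB2, a core beta subunit, with 1621 and 925 counts (log2 fold −0.79, interval −0.91 to −0.68). Of 78 mitochondrial ribosomal protein genes 2 were lower and 1 higher: MRPL35 had 384 and 197 (log2 fold −0.95, interval −1.20 to −0.70), MRPL38 lay at −0.59 and MRPL20 had 133 and 209 (log2 fold 0.67, interval 0.35 to 0.99). In the RNA interference machinery, through which an siRNA acts, DICER1 had 1197 and 1749 counts (log2 fold 0.56, interval 0.46 to 0.67), AGO3 lay at 0.56 and TNRC6B at −0.61, and 1 of 12 was 1.5-fold lower.

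Metabolic lists split within themselves. The shares over all genes were 4.01% for 1.5-fold higher, 4.4% for 1.5-fold lower and 51.4% for below 0. Of 28 hypoxia genes 4 were 1.5-fold higher and 1 lower: the oxygen-regulated factor HIF1A had 6658 and 10224 counts (log2 fold 0.63, interval 0.59 to 0.68), the glucose transporter SLC2A3 92 and 163 (0.84), STC2 lay at 0.69 and ADM at 0.78. The lower gene, NDRG1, is one whose count and RPKM disagree. In cholesterol control, INSIG1, which retains the SREBP complex, had 2849 and 4716 counts (log2 fold 0.74, interval 0.68 to 0.81), while EBP, a sterol isomerase of the synthesis pathway, had 2552 and 1497 (log2 fold −0.75, interval −0.85 to −0.66). The synthesis enzyme gene HMGCS1 lay at −0.51, and 21 of 26 genes of this list were below 0.

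In serine and one-carbon metabolism 4 of 29 genes were 1.5-fold higher and 3 lower, against 4.01% and 4.4% of all genes. ALDH1L2, a mitochondrial folate enzyme, had 53 and 95 counts (log2 fold 0.85, interval 0.36 to 1.37) and CBS, of transsulfuration, 419 and 662 (log2 fold 0.68, interval 0.50 to 0.86). The amino acid transporter SLC7A5 had 7030 and 4490 (log2 fold −0.63, interval −0.69 to −0.58) and the factor ATF4 2662 and 1921 (log2 fold −0.45, interval −0.54 to −0.37). Of the chaperones, HSPA1A and HSPA1B had values of −0.86 and −0.72, and since they are near-identical copies their separate counts are uncertain. Of 23 unfolded protein response genes 1 was 1.5-fold higher, the phosphatase subunit PPP1R15A (253 and 412 counts, 0.72), while XBP1 lay at −0.49.

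**Figure D4:**
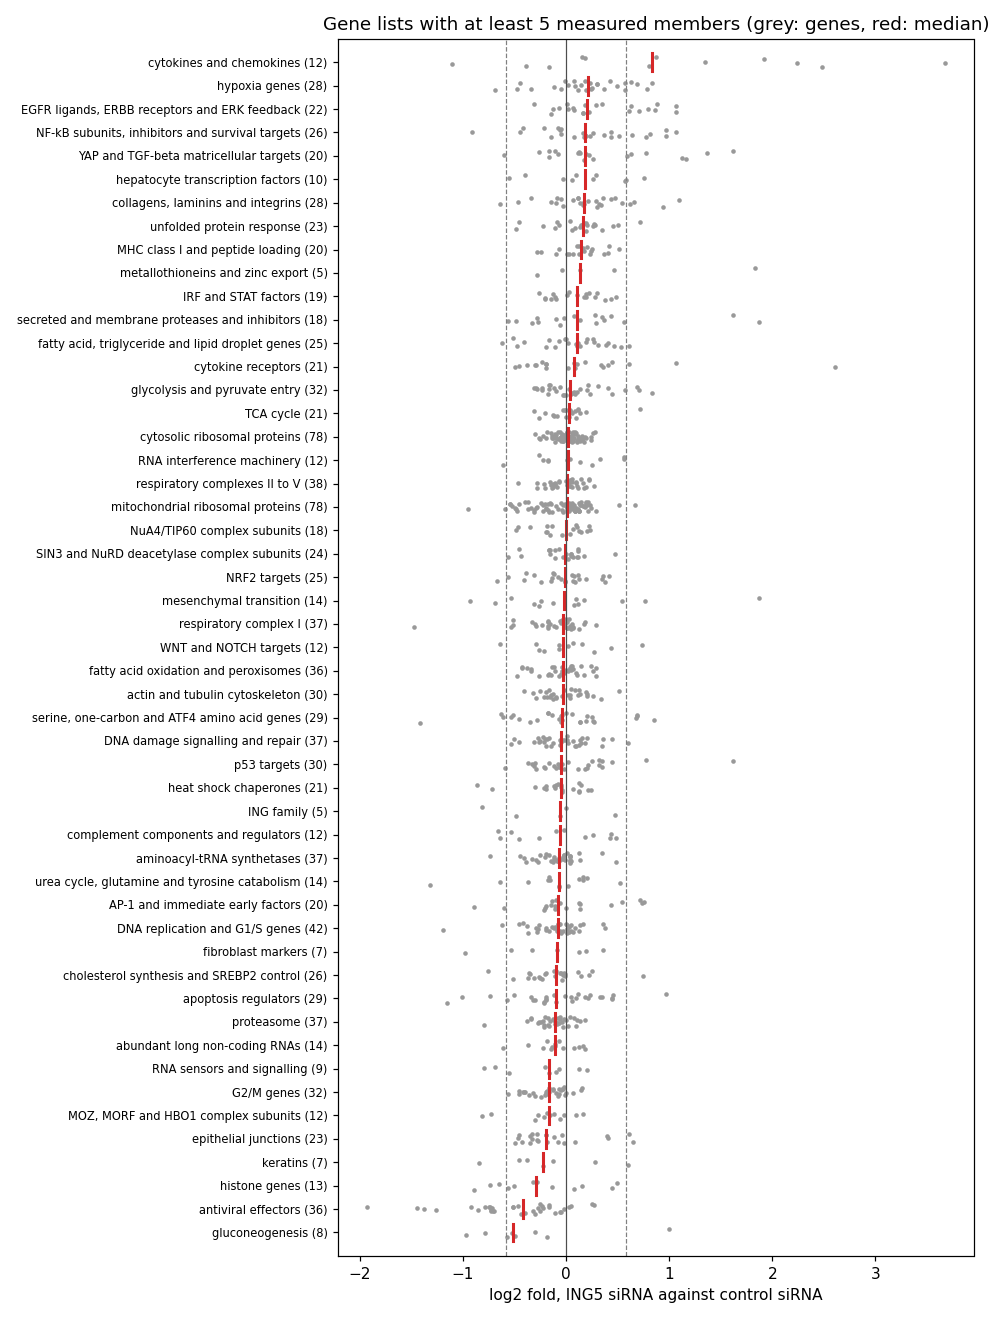
Log2 fold of ING5 siRNA against control siRNA (x axis) for every measured member (grey points) of the gene lists with at least 5 measured members (rows, number measured in brackets), with list medians as red bars and 1.5-fold as dashed lines, from 1 library per group. Cytokines and chemokines have a median of 0.84, which rests on 5 of 12 members that passed the filter only through ING5 siRNA (0.16 over the 7 with at least 20 counts in both libraries); the median over all measured genes is −0.01.

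Of the 20 genes with the interval bound farthest above 0, NT5E (CD73), which makes adenosine from AMP, had 117 and 281 counts (log2 fold 1.28, interval 0.96 to 1.60) and ANTXR2, an anthrax toxin receptor, 58 and 151 (log2 fold 1.39, interval 0.95 to 1.86). ENTPD7, a nucleotidase, had 280 and 637 (1.20), SELENOM, a selenoprotein, 20 and 65 (1.69) and the metallothionein MT1X 13 and 47 (1.83). MT1X passed the filter only through ING5 siRNA, where it is high. In all 20 the control siRNA count was the lower one, as the choice fixes.

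Of the 20 genes with the interval bound farthest below 0, ATP1B3, a beta subunit of the sodium pump, had 4048 and 1982 counts (log2 fold −1.01, interval −1.09 to −0.94), and the RNA-binding gene HNRNPUL1 2223 and 1023 (−1.10). CGGBP1, a CGG-repeat binding protein, had 1466 and 674 (−1.10), the calcium-binding gene S100P 864 and 389 (−1.13), and SCPEP1, a carboxypeptidase, 152 and 55 (−1.44). CDH5, the cadherin of endothelium, had 224 and 87 (−1.34), and stood at 131 CPM in vector on the shared scale.

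By change in share of reads, the largest gain was in H19, a long non-coding RNA, from 11421 to 12885 CPM (0.16). The CPM values in this paragraph are scaled by library total alone and are not on the shared scale. The next was in FTH1, the ferritin heavy chain, from 4007 to 5176 (0.36). SCD, the fatty acid desaturase, went from 2459 to 3232 (0.38) and TFRC, the transferrin receptor, from 1341 to 1717 (0.35). Among the largest losses were CPS1, which starts the urea cycle, from 5085 to 4575 CPM (−0.16), and NCL, nucleolin, from 1771 to 1436 (−0.31). ALPP, placental alkaline phosphatase, which has near-identical copies, went from 1591 to 1202 (−0.42). Each of the 7 genes named here was less than 1.5-fold apart.

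The pair was also set within all 4 libraries, over 11632 measured genes with values in each. The SD of the log2 ratio was 0.34 for ING5 siRNA against control siRNA, 0.29 for the library labelled JFK against vector and 1.04 for control siRNA against vector. At least 2-fold apart were 0.937% of genes in the vector pair and 30.9% between the controls. The distance between the 2 controls was thus larger than that within either pair. Of 88 of the 2-fold higher genes with values in every library, ING5 siRNA was the highest of 4 for 65 and control siRNA the lowest for 51. Of the 81 2-fold lower genes, ING5 siRNA was the lowest of 4 for 63 and control siRNA the highest for 32. Both sets were chosen by the fold between the siRNA libraries, which fixes in part how these rank. The ranks were not taken over all 11632 genes, so they are a description only.

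The labelled cell type was checked against its markers. Of 25 hepatocyte secreted protein genes 3 were measured in the pair, the ceruloplasmin gene CP (1206 and 1412 counts), VTN (376 and 489) and RBP4 (34 and 54), and 14 had no row. AFP had 1 and 0 counts and SERPINA1 7 and 3. HNF4A had 75 and 91, and of the leukocyte marker list only CD68, also found outside leukocytes, was measured, with PTPRC at 1 and 1 counts. The secreted markers thus go against the label, and the identity of the cells was not settled here. The name HepG2 is used only as the label gives it.

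A set of genes differed between count and RPKM. For 112 measured genes the listed count was not the one implied by RPKM, gene length and depth within 0.001 counts, and for 108 of them this held in ING5 siRNA but not in control siRNA. In all 108 the listed count was above the implied one, by a median of 2.22% (1.05% to 11.3%). All 108 also lay below 0, in a narrow range from −1.07 to −0.38 with a median of −0.53 (−0.57 by the implied count). Of the other 11522 measured genes 50.9% lay below 0 and 9.76% lay in the same range. Of the 108, 35 were 1.5-fold lower by count and 45 by the implied count, and 36 of the 512 genes that were 1.5-fold lower had a count and RPKM that disagree.

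The same 108 genes lay mostly below 0 in the other pair, which has its own control. In the library labelled JFK against vector 106 of them lay below 0, with a median of −0.46 and quartiles of −0.56 and −0.42. The other genes lay below 0 in 49.4% of cases, with a median of 0.00. The 2 exceptions were PLXNB2, a plexin (0.18), and CHPF2, a chondroitin polymerising factor (2.88). Among the 108 are NDRG1, with 13203 and 8093 counts in control and ING5 siRNA (−0.69), CD46, a complement regulator (−0.53), the aldose reductase AKR1B1 (−0.50), the keratin KRT7 (−0.84), the ETS repressor ERF (−1.07) and FARSA, a phenylalanyl-tRNA synthetase subunit (−0.74). What links the disagreement to the shared direction was not tested.

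**Figure D5:**
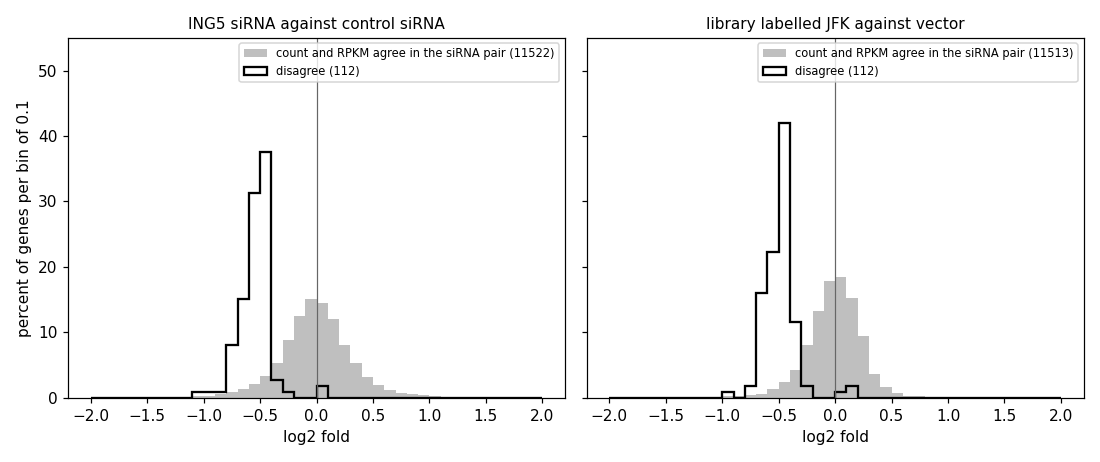
Share of genes (y axis, percent per bin of 0.1) by log2 fold (x axis) for measured genes whose count and RPKM agree (grey) and disagree (black line), in ING5 siRNA against control siRNA (left) and in the library labelled JFK against vector (right), with 1 library per group. Almost all disagreeing genes sit in a narrow band below 0 in both panels, while the other genes centre on 0. UGT8 (0.05) and NME2 (0.07) lie above 0 on the left, and PLXNB2 (0.18), NME2 (0.17) and IL34 (0.05) on the right. CHPF2, at 2.88 on the right, and other values beyond 2 either way lie outside the axis.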

How the data were processed

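Total RNA of cells labelled HepG2 was extracted with Trizol and read on an Illumina HiSeq machine, per the labels' protocols. The transfection label set each group. The authors used FastQC, fastp, STAR and DESeq2 with GRCh37 and hg19, per the submitters' processing notes; their versions and roles, and the counter, were not given in the sources used here. For the siRNA pair the deposited values are whole counts and RPKM, with 0.01 for genes without reads, per the file headers and values. The vector tables hold deposited expected counts and deposited FPKM, per the file headers.

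Counts were scaled with TMM factors (0.996 and 1.00) from edgeR 4.0.16 in R 4.3.3, and 0.5 was added; Python 3.11.15 did the rest. Levels across the 4 libraries used TMM factors over 15902 shared genes, and log2 ratios between these CPM values used 0.05 added. No test was run, since each group held 1 library. A count of 3 reads equals 0.326 CPM in control siRNA and 0.332 in ING5 siRNA, by library total alone. The steps were tested on simulated data.

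Entrez identifiers were matched to symbols through a RefSeq table of GRCh38.p14, and 89 of 16856 did not match. Coordinates are given only for the printed promoters, in GRCh38.p14, and not for measured genes, as the files' build differs. Promoters were found for 9432 of the 11634 measured genes.

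The 56 gene lists, the thresholds and the members were chosen with earlier results of these data known. Named genes were ING1 to ING5, list members with the 3 highest and 3 lowest first, the 20 higher and 20 lower genes past 2-fold with the interval bound farthest from 0 and with count and RPKM in agreement, the 10 largest gains and 10 largest losses in CPM, and genes whose count and RPKM disagree, named as such; some genes that this covers are not reported here, and the plots of named genes leave them out. PLXNB2, CHPF2, ERF and other members of the last set were named after their values were seen. Alternatives were other scalings, 5 added, a mean of at least 100 or no filter, counts implied by the deposited RPKM, leaving out genes whose count and RPKM disagree, summing repeated identifiers, an interval criterion and, added after the data were seen, at least 20 counts in both libraries.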

Additional observations from a re-analysis of the deposited data

How the results depend on the processing

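The filter on low counts moved the numbers most. With a mean of at least 100, 20 genes were 2-fold higher and 36 lower, and 168 were 1.5-fold higher and 293 lower. With no filter the numbers were 1374 and 1232 at 2-fold, and 2263 and 2113 at 1.5-fold. Requiring in addition an interval wholly past 1.5-fold left 44 higher and 48 lower. At least 20 counts in both libraries, an alternative chosen after seeing the data that also removes genes near 0 in 1 library, left 57 higher and 60 lower, and the cytokine median went from 0.84 to 0.16. Under the other alternatives the 2-fold higher genes numbered 65 to 97 and the lower ones 60 to 86. The log2 fold of ING5 ran from −0.83 to −0.78. Of 496 named genes none that was 1.5-fold apart changed sign, and 4 values left their counting interval (AKR1B1 by RPKM, H19 with 2 scalings, NEAT1 with 1). Scaling moved the median of all genes by −0.02 to 0.02. Neither a shift of that size nor a filter or an added count can reverse a 1.5-fold difference. Under those alternatives the unchanged signs are therefore no support for the folds. Of 56 list medians 11 changed sign under some alternative. The endothelial list, with 2 measured genes, went from −0.78 to 0.0107 with no filter, which brings in genes with few reads; the leukocyte list, with 1, from −0.32 to 0.02. With a mean of at least 100, apoptosis regulators went from −0.10 to 0.02, complement genes from −0.06 to 0.19 and fibroblast markers from −0.09 to 0.02. The other 6 had medians within 0.03 of 0. The strip plot of lists leaves out those with fewer than 5 measured members, a choice made after the values were seen; all 56 are compared here. No paired analysis was possible because each group held 1 library. Genes near the count minimum can pass 2-fold by counting error alone.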
